A study of Homo sapiens with 16 samples.

Results

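The genes described here are 9 of the 26475 genes in the count table, chosen by symbol as components of matrix proteolysis. They are the plasminogen activators *PLAU* and *PLAT*, the urokinase receptor *PLAUR*, the serpin *SERPINB5*, the matrix metalloproteinases *MMP1*, *MMP14* and *MMP9*, and the tissue inhibitors of metalloproteinases *TIMP1* and *TIMP2*. All 9 symbols were found in the table. The rule names symbols and has no threshold on a measured value, but the set was chosen with earlier results of these data known. A further 63 genes of matrix proteolysis served as a wider list.

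Urokinase (uPA, from *PLAU*) and tissue plasminogen activator (tPA, from *PLAT*) cut plasminogen to plasmin, a serine protease that degrades matrix proteins and can activate latent metalloproteinases. Urokinase works largely at the cell surface, where it binds its receptor uPAR (from *PLAUR*). MMP14 is a membrane-bound collagenase that cuts fibrillar collagen I and activates proMMP2, a step in which TIMP2 takes part as a bridge between both enzymes. Collagen I is also a ligand of DDR1, a receptor tyrosine kinase of epithelial cells.

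MCF10A, a non-tumorigenic human breast epithelial cell line, was profiled by RNA-seq in 16 libraries, 4 in each of 4 groups. Control cells received vehicle (DMSO) and no collagen, and the other groups received collagen I at 0.05 mg/mL for the last 24 h with vehicle, with the DDR1 inhibitor DDR1-IN-1 (DDR1i, 2 μM for 48 h) or with AI-10-104 (RUNXi, 5 μM for 48 h), an inhibitor of the pairing of RUNX proteins with their cofactor CBFβ. All groups grew on plates in medium with insulin, EGF, hydrocortisone, cholera toxin and horse serum, and neither inhibitor was given without collagen. Collagen came with NaOH for polymerization, which controls did not receive, so that collagen and its NaOH cannot be told apart. Cells were lifted with trypsin before RNA was prepared. The study compared the inhibitors to ask whether DDR1 and RUNX1 control a common set of genes.

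Library totals ranged from 12184619 to 44332378 counts, both extremes in the control group. Levels are given as normalized CPM, counts scaled to the library total (CPM) after TMM scaling of all 16 libraries. The labels number the replicates without saying whether they were separate cultures, so that p-values measure only the spread between these libraries, which may be technical. Collagen replicate 3, which the study removed as an outlier, is printed with the other libraries but took no part in the tests unless stated. All 8 basal epithelial markers checked were present (*KRT5* at 6968 to 11589 CPM). They include *CDH1*, which the study uses as a general epithelial marker. Summed levels of fibroblast markers were 5.42 to 32.9 CPM (mostly *DCN*, up to 30.1 CPM, with *COL3A1* at 0 counts), those of leukocyte markers 12.1 to 53.2 CPM (*CD68* up to 28.7 CPM, *PTPRC* with 1 count in all) and those of endothelial markers 0 to 3.54 CPM (*CDH5* at 0 counts). Summed basal marker levels were 13808 to 19693 CPM with DDR1i, below the 21332 to 24689 CPM with RUNXi. The control (18340 to 23080 CPM) and collagen (18599 to 25577 CPM) groups overlapped both. Summed luminal markers were 2758 to 3378 CPM with DDR1i and 2990 to 3968 CPM with collagen, above the 2224 to 2555 CPM with RUNXi. The control, at 2467 to 3559 CPM, overlapped all of these. The luminal sum was mostly *KRT7* (1689 to 3254 CPM), with *KRT19* and *ELF3* at no more than 3.65 and 3.05 CPM. The part of these markers in the results was not tested. In bulk RNA, fewer cells of a type and less RNA per cell cannot be told apart.

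The sequence before the start of *PLAU* is shown because this gene was called in 3 of the 6 comparisons. Short stretches of other members are shown because they hold letters searched for RUNX or AP-1 factors. RefSeq windows (GRCh38.p14) were at hand for 5 of the 9 genes, 6 windows in all, each covering 250 bases before a transcript start. The letters searched on both strands were TGTGGT and TGCGGT for RUNX, TGANTCA for AP-1 and GGGCGG for the GC box, and capitals mark the matches. The *PLAU* stretch is chr10:73910882-73911103 on the plus strand, 250 to 29 bases before the start. Those of *PLAUR* (chr19:43670338-43670366, minus strand), *SERPINB5* (chr18:63476801-63476829, plus), *MMP14* (chr14:22836397-22836424, plus) and *TIMP1* (chrX:47582354-47582381, plus) follow. Each is written 5′ to 3′ along the gene's strand.
PLAU: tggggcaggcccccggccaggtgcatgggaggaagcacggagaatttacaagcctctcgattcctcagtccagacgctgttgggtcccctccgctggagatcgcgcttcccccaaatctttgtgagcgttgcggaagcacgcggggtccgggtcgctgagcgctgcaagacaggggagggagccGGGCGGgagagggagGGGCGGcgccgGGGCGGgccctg
PLAUR: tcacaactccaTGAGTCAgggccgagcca
SERPINB5: taacttcagccTGAATCAtttctttcaat
MMP14: tggcagcctgcACCACAaaaaggcaact
TIMP1: gcctggaggccTGTGGTttccgcacccg
The *PLAU* stretch held 3 GC boxes, at 66, 51 and 40 bases before the start, and neither *PLAU* window held RUNX or AP-1 letters. RUNX letters were found in 2 of the 6 windows, those of *MMP14* and *TIMP1*, and in 16.3% of all 35116 windows in the table. AP-1 letters were found in those of *PLAUR* and *SERPINB5* and in 6.57% of all windows, and GC boxes in 4 of the 6 and in 42.6% of all. In the *MMP14* stretch the RUNX letters lie on the other strand and read ACCACA. The AP-1 search allowed any middle base, which was A in *SERPINB5* and G in *PLAUR*. Bases farther than 250 before a start were not searched. Such matches describe letters and not bound sites.

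Compared per kb of the canonical transcript, the members covered a wide range of levels. Over all 16 libraries, *TIMP1* had the highest mean, 419 CPM per kb, followed by *SERPINB5*, the gene of maspin, at 269 CPM per kb. *MMP14* (55.0 CPM per kb), *PLAUR* (45.2), *PLAU* (35.0), *TIMP2* (25.3) and *PLAT* (16.2) formed a middle group. At the low end were *MMP9*, the gelatinase MMP-9, at 0.647 CPM per kb and *MMP1*, the interstitial collagenase, at 0.188 CPM per kb. The group mean of *PLAU* in CPM per kb was 19.9 in the control, near that of *TIMP2* (20.9), and 57.4 with DDR1i, between those of *PLAUR* (56.9) and *MMP14* (66.4).

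**Figure D1:**
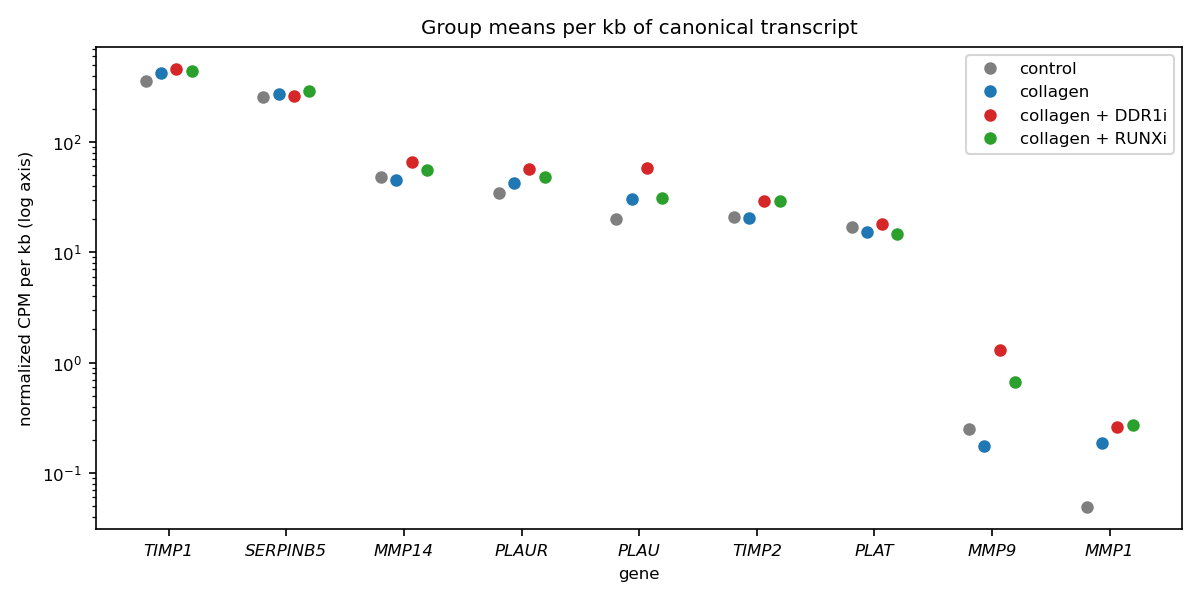
Group means of the 9 genes in normalized CPM per kb of canonical transcript, on a log axis, with collagen replicate 3 left out. *TIMP1* and *SERPINB5* lie highest, *MMP9* and *MMP1* lowest, and *PLAU* runs from 19.9 CPM per kb in the control to 57.4 with DDR1i.

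DDR1i raised *PLAU* relative to collagen alone, and no other member passed the test. Each comparison was made over all genes with edgeR's quasi-likelihood test, and a gene was called at a Benjamini-Hochberg adjusted p under 0.05. Of the 9 genes, 1 was called with DDR1i, higher, against 2.47% of the 13548 genes tested (1.69% called higher). The log2 fold changes of 8 of the 9 were above 0, as were 50.3% of those of all genes tested. Their median was 0.44, beside 0.0037 over all genes tested, and is the value of *MMP1*, a gene with few counts (SE 1.51). With RUNXi over the same collagen libraries, 8 of the 9 were above 0 as well (median 0.16), as were 50.5% of all genes tested. Every DDR1i library lay above every collagen library used for 2 members, *PLAU* and *MMP14*, against 8.44% of all tested genes.

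The inhibitors differed from each other at *PLAU*. In the direct comparison of DDR1i with RUNXi, *PLAU* was the 1 member called (0.568% of all tested genes, 0.347% called higher). It was also the 1 member for which all 4 DDR1i libraries lay above all 4 RUNXi libraries, a pattern found in 2.27% of tested genes. With RUNXi against collagen alone, 0 of the 9 genes were called by edgeR (4.05% of all tested genes). An unadjusted p under 0.05 was reached by 1 gene, *TIMP2*, beside 2853 of 13548 tested genes, and DESeq2 called *TIMP2*. *TIMP2* was the 1 member with every RUNXi library above every collagen library used, against 9.46% of tested genes.

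Against the control without collagen, *PLAU* and its receptor gene *PLAUR* were both higher with collagen and DDR1i. These 2 of 9 genes compare with 0.124% of the 13731 genes tested (0.0874% called higher). They were also the 2 members with every DDR1i library above every control library, against 1.73% of tested genes. With collagen and RUNXi, 0 of 9 genes were called by edgeR and by DESeq2 (0.255% of tested genes by edgeR). An unadjusted p under 0.05 was reached by 3 of the 9, beside 894 of 13731 tested genes. With collagen alone, 0 of the 8 members that could be tested were called by either tool, as edgeR called 0 of the 13092 genes tested (0%). Of these members, 1 had an unadjusted p under 0.05, beside 1754 of the 13092 genes. In the last 2 comparisons *PLAUR* was the 1 member with every treated library above every control library, against 2.25% of genes with RUNXi and 6.45% with collagen alone. The comparisons with collagen share the same collagen libraries, and those with the control share the same control libraries, so that their values are set side by side without a test of likeness.

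**Figure D2:**
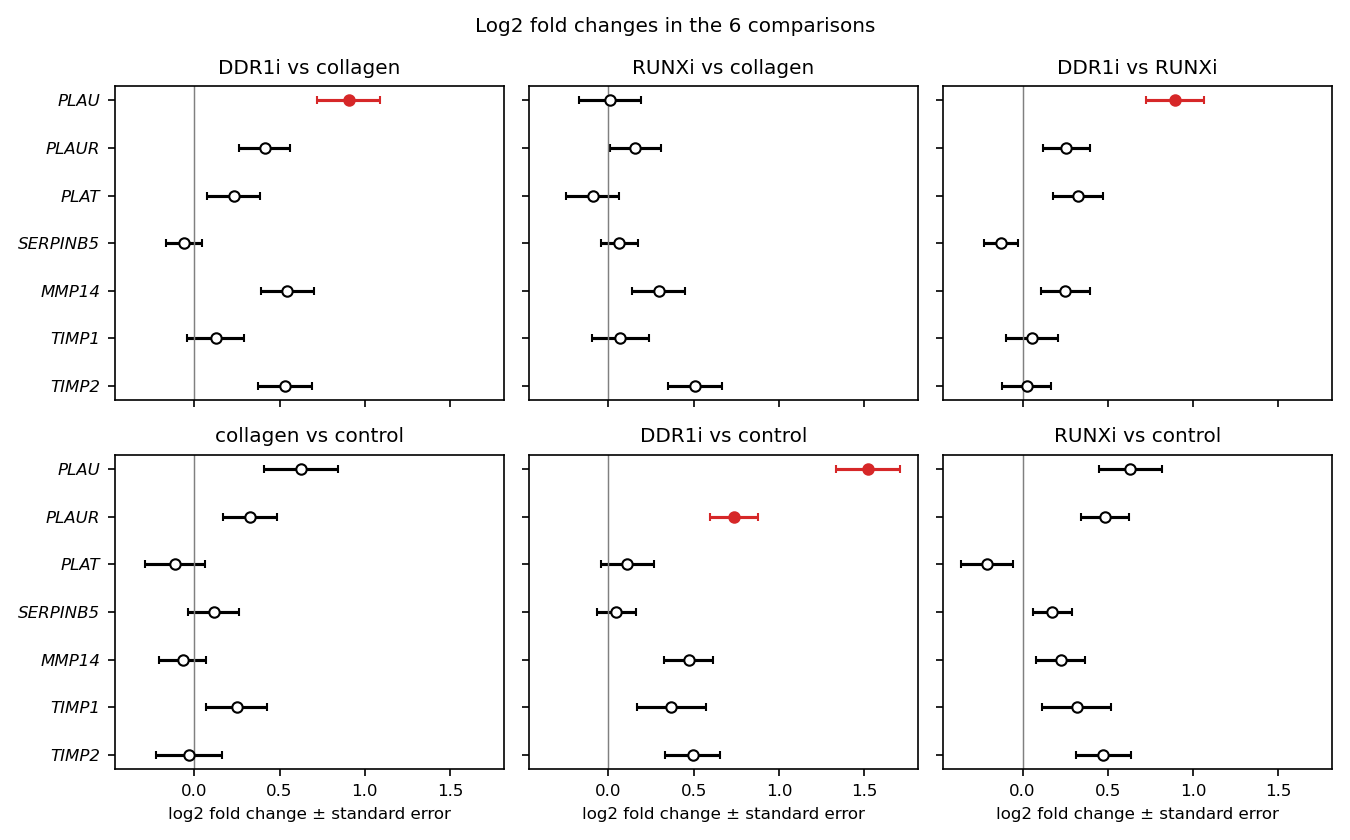
Log2 fold changes (points) and standard errors (bars) of 7 of the 9 genes in the 6 comparisons, with genes called at an adjusted p under 0.05 filled in red. *PLAU* is filled in 3 comparisons, all with DDR1i as the first group, and *PLAUR* in 1. *MMP1* and *MMP9*, with 132 and 548 counts in all 16 libraries, are left out because their standard errors are above 0.9.

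*PLAU* (chromosome 10, 75668935 to 75677254, GRCh37) encodes urokinase, the activator that works at the cell surface. Its level with DDR1i was 115, 113, 165 and 145 normalized CPM in replicates 1 to 4, and with collagen alone it was 67.3, 53.3, 80.5 and 94.6 CPM, where 80.5 belongs to the replicate left out. With RUNXi the 4 libraries had 59.0, 72.4, 66.4 and 92.0 CPM, and the control libraries had 42.6, 38.7, 40.5 and 64.9 CPM. All 4 DDR1i libraries thus lay above the other 12 libraries, including collagen replicate 3, while RUNXi and collagen libraries overlapped and the control reached into both. In order, the group means were 46.7 ± 12.2 CPM (SD, n = 4) in the control, 71.7 ± 21.0 (SD, n = 3) with collagen, 72.5 ± 14.2 (SD, n = 4) with RUNXi and 135 ± 25.0 (SD, n = 4) with DDR1i, and the control, collagen and RUNXi libraries overlapped along this order.

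The *PLAU* log2 fold change of DDR1i over collagen was 0.90 (SE 0.19, 1.87-fold, adjusted p = 0.0129, edgeR), and over RUNXi it was 0.89 (SE 0.17, 1.86-fold, adjusted p = 0.00819, edgeR). Over the control it was 1.52 (SE 0.19, 2.87-fold, adjusted p = 0.00021, edgeR). In contrast, RUNXi and collagen alone had nearly the same mean, with a log2 fold change of 0.01 (SE 0.18, adjusted p = 0.987, edgeR). Against the control, the value was 0.63 both for RUNXi (SE 0.19, adjusted p = 0.247, edgeR) and for collagen alone (SE 0.22, adjusted p = 0.232, edgeR). The RUNXi value against the control was called without control replicate 4 (0.84, adjusted p = 0.0284, edgeR, the lowest of 15 fits that each left out 1 library, up to 0.661). This value was also called with the replicate number as a block (0.65, adjusted p = 0.00909, edgeR).
The call against collagen was lost with collagen replicate 3 included (log2 fold change 0.85, adjusted p = 0.062, edgeR) and without DDR1i replicate 3 (0.80, adjusted p = 0.0568, edgeR), and adjusted p ranged from 0.00204 to 0.0568 over the 11 fits that left out 1 library. The call against RUNXi was lost without RUNXi replicate 1 (0.81, adjusted p = 0.0504, edgeR) or 3 (0.85, adjusted p = 0.0626, edgeR), the highest of a range from 0.000411, whereas the call against the control held in all 15 fits that left out 1 library.

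**Figure D3:**
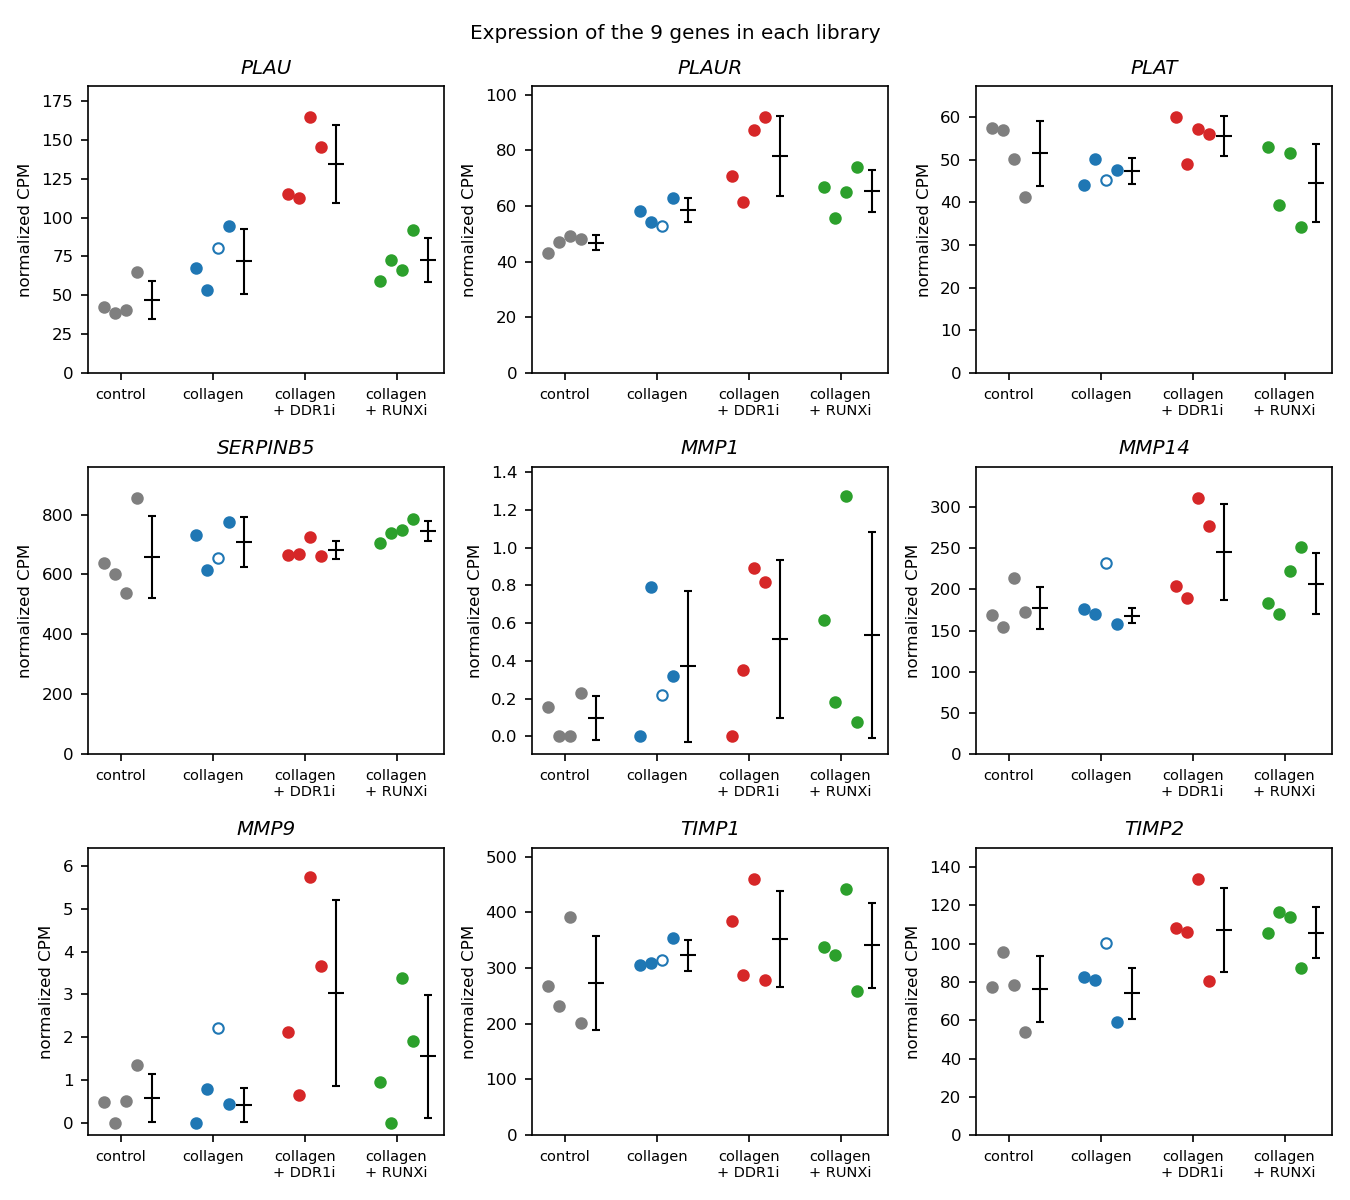
Normalized CPM of the 9 genes in each library by group, in the order of replicates 1 to 4 from left to right, with the mean and SD as a black bar. The open circle is collagen replicate 3, which is left out of the mean. For *PLAU*, the DDR1i libraries (113 to 165 CPM) lie above all others.

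Genes called higher with DDR1i relative to collagen had longer transcripts (median 7610 bases) than all tested genes (3260 bases). The canonical transcript of *PLAU* has 2343 bases, and after a correction of each library for transcript length *PLAU* was still called in all 3 comparisons with DDR1i. An RNA gene on the opposite strand, *C10orf55*, overlaps *PLAU*, and the use of strand in counting is not given in the sources used here, so that reads of both cannot be told apart.

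*PLAUR* (chromosome 19, 44150247 to 44174699), which encodes the receptor that holds urokinase at the membrane, had a narrower response. The 4 control libraries had 43.0, 47.0, 49.4 and 48.01 CPM, and those with collagen alone 58.2, 54.2, 52.9 (the replicate left out) and 62.9 CPM. With DDR1i the values were 70.7, 61.4, 87.4 and 92.1 CPM, and with RUNXi 67.0, 55.6, 65.1 and 74.0 CPM. Each of the 12 libraries with collagen, with or without inhibitor, lay above each of the 4 control libraries, whereas the 3 groups with collagen overlapped.

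The log2 fold change of *PLAUR* with DDR1i over the control was 0.73 (SE 0.14, 1.66-fold, adjusted p = 0.0172, edgeR). This call was lost without control replicate 1 (adjusted p = 0.111, edgeR), control replicate 2 (0.0708), DDR1i replicate 3 (0.133) or DDR1i replicate 4 (0.0866), and after the length correction (log2 fold change 0.58, adjusted p = 0.249, edgeR). Over the 15 fits that left out 1 library, adjusted p ranged from 0.00754 to 0.133. Over collagen alone, the DDR1i value was 0.41 (SE 0.15, adjusted p = 0.135, edgeR). RUNXi gave 0.48 over the control (SE 0.14, adjusted p = 0.23, edgeR) and 0.16 over collagen (SE 0.15, adjusted p = 0.606, edgeR), and collagen alone gave 0.33 over the control (SE 0.16, adjusted p = 0.389, edgeR). Group means in increasing order were those of the control (46.8 ± 2.74 CPM, SD, n = 4), collagen (58.4 ± 4.35, n = 3), RUNXi (65.4 ± 7.57, n = 4) and DDR1i (77.9 ± 14.3, n = 4), of which only the control stood clear of its neighbour.

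Over all 16 libraries, treatment differences included, *PLAU* and *PLAUR* followed each other. Among the genes tested in all fits, the gene whose log2 CPM was most like that of *PLAUR* was *PLAU* (Pearson r = 0.851, Spearman rho = 0.782, n = 16 libraries), ahead of *FAM114A1* (r = 0.846, rho = 0.776). Nearest to *PLAU* were *FOSL1* (r = 0.883, rho = 0.835), which encodes the AP-1 subunit FRA-1, and *CD59* (r = 0.869, rho = 0.90), which encodes an inhibitor of complement at the cell membrane. These values describe 16 libraries that share treatments and preparation. With the group means taken away, r between *PLAU* and *PLAUR* was 0.50. By that measure it was lower than r of *PLAU* with *SERPINB5* (0.77) and of *PLAUR* with *MMP14* (0.60). Per kb, the ratio of *PLAU* to *PLAUR* was 0.582 ± 0.146 (SD, n = 4) in the control, 0.709 ± 0.155 (n = 3) with collagen, 0.649 ± 0.115 (n = 4) with RUNXi and 1.01 ± 0.087 (n = 4) with DDR1i. All 4 DDR1i libraries (0.922 to 1.10) had a higher ratio than all others.

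**Figure D4:**
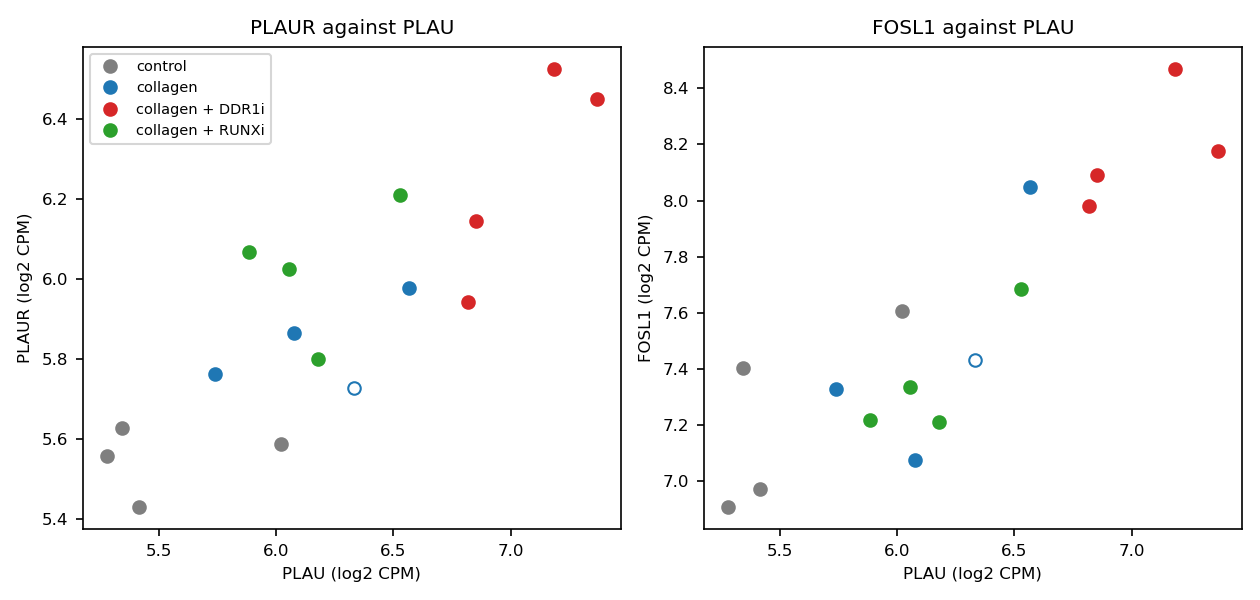
Log2 CPM of *PLAUR* (left) and *FOSL1* (right) against log2 CPM of *PLAU*, with 1 point per library coloured by group and collagen replicate 3 as an open circle. In both panels the 4 DDR1i libraries lie farthest right, with Pearson r = 0.85 and 0.88 over the 16 libraries.

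*PLAT*, the gene of the second activator, did not pass the test in any of the 6 comparisons. Its levels were 48.9 to 60.0 CPM with DDR1i, 44.1 to 50.1 CPM in the 4 collagen libraries, 34.3 to 53.0 CPM with RUNXi and 41.2 to 57.5 CPM in the control, and all groups overlapped. The lowest unadjusted p was that of DDR1i over RUNXi, where the log2 fold change was 0.32 (SE 0.14, adjusted p = 0.733, edgeR). Across the 16 libraries, r between *PLAT* and *PLAU* was 0.02, and with the group means taken away it was -0.57. The ratio of *PLAU* to *PLAT* per kb was 1.24 ± 0.547 (SD, n = 4) in the control, 2.00 ± 0.609 (n = 3) with collagen, 2.26 ± 0.923 (n = 4) with RUNXi and 3.17 ± 0.535 (n = 4) with DDR1i. The DDR1i libraries (2.51 to 3.77) overlapped those with collagen and RUNXi.

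*SERPINB5* encodes maspin, a serpin made by mammary epithelial cells, and passed no test. Its levels ranged from 661 to 725 CPM with DDR1i, from 704 to 786 with RUNXi, from 616 to 776 in the 4 collagen libraries and from 539 to 856 in the control. Its log2 fold changes in the 6 comparisons lay between -0.13 (DDR1i over RUNXi) and 0.17 (RUNXi over control), with adjusted p of 0.803 or above (edgeR) in each. The 95% interval of the DDR1i value over collagen ran from -0.27 to 0.15, and that over the control from -0.18 to 0.27.

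*MMP14* (chromosome 14, 23305769 to 23318250), which encodes the membrane collagenase MT1-MMP, came close to the threshold with DDR1i. The DDR1i libraries had 205, 189, 311 and 278 CPM, and the collagen libraries had 176, 170.1, 232 and 158 CPM, of which 232 belongs to the replicate left out. The RUNXi libraries had 184, 171, 222 and 251 CPM and the control libraries 169, 154, 214 and 172 CPM. DDR1i libraries lay above the 3 collagen libraries used, but the value of collagen replicate 3 was above those of DDR1i replicates 1 and 2. Replicate 3 was the highest library of the control, collagen and DDR1i groups, and replicate 4 that of the RUNXi group.

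The log2 fold change of *MMP14* with DDR1i over collagen was 0.54 (SE 0.16, 1.46-fold, adjusted p = 0.0588, edgeR). It was called by DESeq2 (adjusted p = 0.0216) and by edgeR without the filter on low counts (adjusted p = 0.00505). With collagen replicate 3 included, the edgeR value was 0.41 (adjusted p = 0.493). It was called without DDR1i replicate 1 (adjusted p = 0.0284, edgeR), DDR1i replicate 2 (0.0329) or RUNXi replicate 4 (0.0492), out of 11 fits with adjusted p up to 0.237. Over the control, DDR1i gave 0.47 (SE 0.14, adjusted p = 0.447, edgeR), and RUNXi gave 0.29 over collagen (SE 0.15, adjusted p = 0.279, edgeR) and 0.22 over the control (SE 0.14, adjusted p = 0.867, edgeR). DDR1i and RUNXi differed by 0.25 (SE 0.14, adjusted p = 0.91, edgeR). For collagen alone over the control the value was -0.07 (SE 0.14, adjusted p = 0.902, edgeR).

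*MMP9* and *MMP1* had few counts. *MMP9* had 50, 15, 129 and 58 counts in the DDR1i libraries, 0, 21, 61 (the replicate left out) and 11 with collagen alone, 23, 0, 53 and 50 with RUNXi and 22, 0, 8 and 47 in the control. A library at 0 allows a level of up to 0.168 CPM in collagen replicate 1, 0.240 CPM in control replicate 2 and 0.138 CPM in RUNXi replicate 2 (3 counts per library, counting error only). The DDR1i group had the highest mean (3.04 ± 2.17 CPM, SD, n = 4, against 0.411 ± 0.397, n = 3, with collagen), but its lowest library lay below collagen replicate 2. The log2 fold change was 2.83 (SE 1.18, adjusted p = 0.199, edgeR). It ranged from 2.27 without collagen replicate 1 to 3.64 without collagen replicate 2 and was 1.78 with collagen replicate 3 included, with adjusted p of 0.0532 or above in all of its alternatives with an adjusted p.

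*MMP1* had 132 counts in total, found in 12 of the 16 libraries, and no more than 21 in any library. Its counts were 0, 8, 20 and 13 with DDR1i, 0, 21, 6 and 8 with collagen, 15, 4, 20 and 2 with RUNXi and 7, 0, 0 and 8 in the control. Standard errors of its log2 fold changes were 1.39 or more, and in the fit of collagen against control it was removed by the filter on low counts. No difference of *MMP1* was detectable with these counts.

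*TIMP2* (chromosome 17, 76849059 to 76921469), the inhibitor that also takes part in proMMP2 activation, passed the main edgeR test with neither inhibitor. The DDR1i libraries had 108, 106, 134 and 80.7 CPM and the RUNXi libraries 106, 117, 114 and 87.2 CPM. With collagen alone the values were 82.7, 81.0, 101 (the replicate left out) and 58.9 CPM, and in the control 77.2, 95.6, 78.5 and 53.9 CPM. RUNXi libraries lay above the 3 collagen libraries used, and DDR1i replicate 4 fell within their range. Replicate 4 was the lowest library of each of the 4 groups.

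Over collagen, the log2 fold change of *TIMP2* was 0.53 with DDR1i (SE 0.16, adjusted p = 0.0702, edgeR) and 0.51 with RUNXi (SE 0.16, adjusted p = 0.0658, edgeR), and DESeq2 called both (adjusted p = 0.0312 and 0.0377). Both were also called by edgeR without the filter on low counts (adjusted p = 0.0124 and 0.0193) and with the replicate number as a block (0.0326 and 0.0311). With collagen replicate 3 included, the edgeR values were 0.40 (adjusted p = 0.495) and 0.37 (adjusted p = 0.344). Leaving out 1 library at a time gave adjusted p from 0.0502 to 0.266 and from 0.0538 to 0.282. DDR1i and RUNXi differed by 0.02 (SE 0.14, adjusted p = 0.999, edgeR). Over the control, the values were 0.49 and 0.47 (SE 0.16 each, adjusted p = 0.56 and 0.435, edgeR), and collagen alone gave -0.03 (SE 0.19, adjusted p = 0.972, edgeR).

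*TIMP1*, a broad inhibitor of secreted metalloproteinases, passed no test. Its levels were 279 to 461 CPM with DDR1i, 259 to 443 with RUNXi, 305 to 355 in the 4 collagen libraries and 201 to 393 in the control. Log2 fold changes lay between 0.05 (DDR1i over RUNXi) and 0.37 (DDR1i over control), with adjusted p of 0.61 or above (edgeR). Replicate 3 was the highest library in 3 of the 4 groups. Per kb, the ratio of *MMP14* to *TIMP2* was 2.40 ± 0.676 (SD, n = 4) in the control, 2.27 ± 0.324 (n = 3) with collagen, 2.33 ± 0.747 (n = 4) with DDR1i and 1.98 ± 0.607 (n = 4) with RUNXi, values that overlapped in all groups. *TIMP1* overlaps *SYN1*, on the opposite strand, and *TIMP2*, *MMP9* and *MMP1* also overlap genes on the opposite strand. On the same strand, *TIMP2* overlaps *CEP295NL*, *SERPINB5* overlaps genes that include *ATP5MC1P6*, and *PLAUR* overlaps genes that include *RN7SL368P*. How reads shared with these genes were counted is not given in the sources used here.

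In the wider list of 63 genes of matrix proteolysis, *ADAM8*, *THBS1* and *HTRA1* were called in at least 1 comparison. With DDR1i over collagen, 2 of the 45 genes tested were called, both higher (1.69% of all tested genes were called higher), and the median log2 fold change was 0.13. With RUNXi, 2 of 45 were called, both higher (2.59% of all tested genes were called higher), with a median of 0.11. They were *ADAM8* and *THBS1* in both comparisons, which share their collagen libraries. Over the control, 1 of 45 was called with DDR1i (*ADAM8*) and 1 of 45 with RUNXi (*HTRA1*, which encodes a secreted serine protease), both higher. Of all tested genes, 0.0874% and 0.153% were called higher in these comparisons. With DDR1i over RUNXi 0 of 45 were called by edgeR and 1 by DESeq2, and 5 had an unadjusted p under 0.05 (839 of all 13548 tested genes). With collagen over the control these counts were 0 of 40, 1 and 7 (1754 of all 13092 tested genes).

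*ADAM8*, which encodes a membrane metalloproteinase, had 22.97, 23.03, 37.9 and 28.1 CPM with DDR1i and 21.5, 24.0, 20.5 and 24.3 CPM with RUNXi. With collagen alone it had 13.8, 12.3, 15.7 (the replicate left out) and 12.1 CPM. Both inhibitor groups lay above all 4 collagen libraries. Against the 3 collagen libraries used, such a pattern was found in 8.44% of tested genes with DDR1i and 9.46% with RUNXi. The 4 control libraries had 5.11 to 19.5 CPM, which overlapped the collagen group and lay below both inhibitor groups (1.73% of tested genes with DDR1i, 2.25% with RUNXi). With RUNXi over the control, *ADAM8* was not called. The log2 fold change over collagen was 1.13 with DDR1i (SE 0.20, adjusted p = 0.00496, edgeR) and 0.82 with RUNXi (SE 0.20, adjusted p = 0.024, edgeR). The RUNXi call was lost with collagen replicate 3 included (adjusted p = 0.0913, edgeR) and without collagen replicate 2 (0.0619) or 4 (0.0943) or RUNXi replicate 2 (0.0588) or 4 (0.0638), and with all 4 groups in the fit (0.115). Over the control, the DDR1i value was 1.27 (SE 0.27, adjusted p = 0.0481, edgeR), a call that held only without collagen replicate 4, control replicate 3 or DDR1i replicate 2 among 15 fits that left out 1 library (adjusted p 0.00396 to 0.406).

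*THBS1* encodes thrombospondin-1, a matricellular protein that binds several proteases. It had 419, 435, 564 and 779 CPM with DDR1i, 670.5, 640, 718 and 1004 CPM with RUNXi and 272, 279, 497 (the replicate left out) and 328 CPM with collagen alone. All inhibitor libraries lay above the 3 collagen libraries used, while collagen replicate 3 lay above DDR1i replicates 1 and 2. The 4 control libraries had 302 to 701 CPM and overlapped the collagen group and both inhibitor groups, and *THBS1* was not called over the control with either inhibitor. The log2 fold change over collagen was 0.91 with DDR1i (SE 0.20, adjusted p = 0.0287, edgeR) and 1.37 with RUNXi (SE 0.20, adjusted p = 0.00289, edgeR). The DDR1i call was lost with collagen replicate 3 included (adjusted p = 0.457, edgeR), after the length correction (0.253), with all 4 groups in the fit (0.12) and without collagen replicate 1 (0.0757), 2 (0.0662) or 4 (0.171) or DDR1i replicate 3 (0.0963). The RUNXi call was lost without collagen replicate 4 (adjusted p = 0.0635, edgeR).

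**Figure D5:**
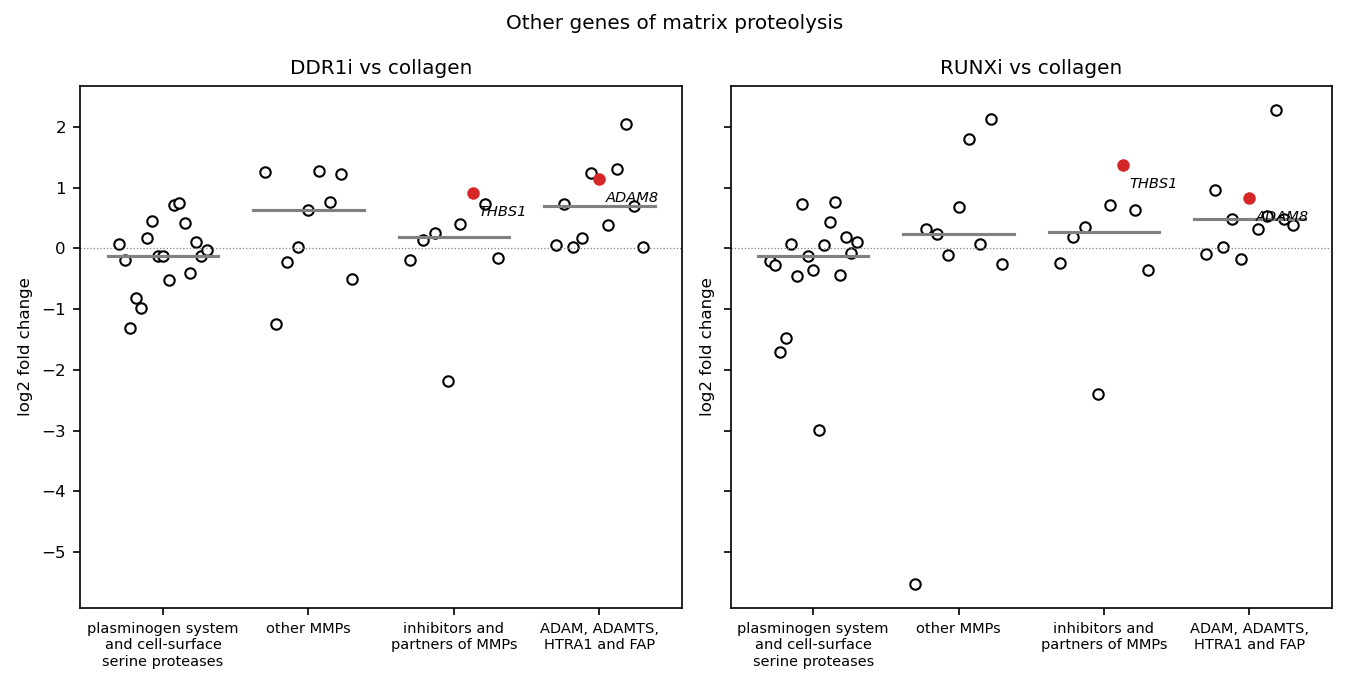
Log2 fold changes of the 45 tested genes of the wider list with DDR1i (left) and RUNXi (right) over collagen alone, by class, with the class median as a grey line. *THBS1* and *ADAM8*, filled in red, were called with both inhibitors, and the 11 tested genes of the ADAM class all lie above 0 with DDR1i.

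*HTRA1* had 321, 298, 288 and 265 CPM with RUNXi, and its 4 control libraries, between 153 and 196 CPM, all lay below, as in 2.25% of tested genes. With collagen alone it had 208 to 250 CPM, also above all controls, and with DDR1i 195 to 264 CPM. RUNXi and control libraries differ in collagen and inhibitor together. The log2 fold change of *HTRA1* with RUNXi over the control was 0.70 (SE 0.11, adjusted p = 0.00116, edgeR). This call held in all 15 fits that left out 1 library (adjusted p up to 0.0155).

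By class, all 11 tested genes of the ADAM, ADAMTS, *HTRA1* and *FAP* class had a log2 fold change above 0 with DDR1i over collagen (median 0.69), as did 50.3% of all tested genes. Of these 11 genes 1 was called, against 2.47% of all tested genes. Genes called higher in this comparison had long transcripts (median 7610 bases, against 3260 for all tested genes). In this class the transcripts ran from 2091 bases (*HTRA1*) to 11158 (*ADAM10*), and the part of length in the class median was not tested. With RUNXi 9 of 11 were above 0 (median 0.48). The 17 tested genes of the plasminogen system outside the members had medians of -0.12 with DDR1i and -0.13 with RUNXi. Of these genes, 2 and 5 had an unadjusted p under 0.05, beside 2442 and 2853 of all 13548 tested genes. The lowest adjusted p in this class was that of *SERPINE2*, the gene of protease nexin-1, with RUNXi (log2 fold change 0.76, SE 0.22, adjusted p = 0.0573, edgeR). *PLG*, the gene of plasminogen itself, had 0 counts in all 16 libraries.

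Few of the other MMP genes were expressed in these cells. Of 20 further MMP genes, 15 had a mean under 1 CPM, among them *MMP8*, *MMP12*, *MMP26* and *MMP27* with 0 counts in all libraries. The highest was *MMP28*, the gene of epilysin, at 49.0 CPM over all libraries, with 31.4 to 53.8 CPM with DDR1i and 49.1 to 64.9 CPM in the 4 collagen libraries (log2 fold change -0.50, SE 0.18, adjusted p = 0.141, edgeR). *MMP2*, the substrate of MMP14, had a mean of 12.9 CPM, with 8.89 to 32.2 CPM with DDR1i and 7.61 to 18.3 CPM in the collagen libraries. The lowest adjusted p of these MMP genes in any of the 6 comparisons was the 0.141 of *MMP28*.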

How the data were processed

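The authors aligned paired reads with STAR to GRCh37 (hg19) and deposited raw counts per gene in 1 table. The counting tool, its annotation and its use of strand are not given in the sources used here. All 16 columns were matched to samples by their labels. The tests did without collagen replicate 3, an outlier in the authors' own analysis. Counts were tested as deposited with edgeR 4.0.16 (R 4.3.3): filterByExpr, TMM scaling, a robust quasi-likelihood fit and Benjamini-Hochberg adjustment over all genes tested, with a threshold of 0.05. The comparisons with collagen as reference and DDR1i against RUNXi used 11 libraries, collagen against control 7, and the inhibitors against control 15. Doses and times follow the labels and the study's methods. Transcript lengths and GRCh37 positions came from GENCODE lifted to that build, and promoters from RefSeq (GRCh38.p14). Log2 CPM for correlations used a prior count of 2. Named genes were the 9 members, at most 4 called genes of the wider list per comparison by adjusted p, MMP genes near 0 as a count, and for each called member the 2 genes with the highest Pearson r. SERPINE2, PLG, MMP2 and MMP28 were added after their values were seen. Members and lists were chosen with earlier results of these data known. Alternatives were DESeq2 1.42.0, its size factors, no filter, collagen replicate 3 included, other groups in the fit, a replicate block, unadjusted p, a length correction and leaving out each library. The fits were tested on simulated data.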

Additional observations from a re-analysis of the deposited data

Results flagged for a closer look

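In 2 of 36 groups of values screened, 1 library stood apart by Dixon's criterion at the 95% level, which chance exceeds in about 1 in 20 groups. *PLAU* in control replicate 4 (64.9 CPM) lay above the other control libraries with a gap of 0.854 of the group's range. *SERPINB5* in DDR1i replicate 3 (725 CPM) lay above the other DDR1i libraries with a gap of 0.883 of the range.

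The effects of the inhibitors relative to the shared collagen libraries differed for *PLAU*, by a log2 fold change of 0.89 between DDR1i and RUNXi (edgeR, adjusted p = 0.00819).

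The collagen replicate left out of the tests, replicate 3, was above the highest control library for 5 of the 9 genes. Its levels were 80.5 CPM for *PLAU* (highest control 64.9), 52.9 for *PLAUR* (49.4), 232 for *MMP14* (214), 2.22 for *MMP9* (1.36) and 101 for *TIMP2* (95.6). How many of all genes lay above the controls in this 1 library was not computed, so that 5 of 9 has no reference.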

How the results depend on the processing

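Over 1195 values of single genes under the alternatives, 0 called values reversed, 41 lost and 28 gained a call, and 46 uncalled values changed sign. Unadjusted p is counted among these alternatives, but it keeps the main fit under a looser threshold and can only add calls. At an unadjusted p under 0.05 were, in the order of comparisons below, 2442, 2853 and 839 of all 13548 tested genes, 1754 of 13092, and 627 and 894 of 13731. For the other alternatives the share over all genes is not given here, so that these counts are no result about the members alone. Counts of members called, then of the wider list, changed as follows. For DDR1i over collagen (1 and 2), DESeq2 called 3 members, no filter 3 and 6, collagen replicate 3 included 0 and 1, all groups in the fit 1 of the wider list, unadjusted p 5 and 9, and the length correction 1 of the wider list. For RUNXi over collagen (0 and 2), DESeq2 called 1 and 6, no filter 1 and 5, collagen replicate 3 included 1 of the wider list, unadjusted p 1 and 13, and the length correction 4 of the wider list. For DDR1i over RUNXi (1 and 0), unadjusted p gave 2 and 5, and of the wider list DESeq2 called 1, no filter 2 and the length correction 1. For collagen over control (0 and 0), unadjusted p gave 1 and 7, and DESeq2 and no filter each 1 of the wider list. For DDR1i over control (2 and 1), the 8 libraries of both groups alone gave 1 and 0, unadjusted p 4 and 11, the length correction 1 and 0, DESeq2 2 of the wider list, and collagen replicate 3 included 0 of it. For RUNXi over control (0 and 1), unadjusted p gave 3 and 10, and of the wider list DESeq2 called 2 and no filter 3. Leaving out control replicates 2 and 3 together, chosen after seeing the data, gave 1 member for DDR1i (*PLAUR* lost, adjusted p = 0.124, edgeR) and 0 of the wider list for RUNXi (*HTRA1* lost, 0.0941). Leaving out 1 library at a time gave, in the same order of comparisons, 0 to 2, 0 to 0, 0 to 1, 0 to 0, 1 to 2 and 0 to 1 members, and 1 to 3, 0 to 3, 0 to 1, 0 to 0, 0 to 2 and 1 to 2 of the wider list. Apart from fits with fewer libraries, the cause was not tested.

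Deviations of libraries with the same replicate number had r from -0.08 to 0.29, over 0.1 in 10 of 24 pairs. Among them were all 6 pairs of replicate 4 (0.165 to 0.286). The labels do not say what the numbers stand for, and the main tests had no block. A shared effect of replicate 4 was not tested. With the replicate number as a block, 2 members and 5 of the wider list were called for DDR1i over collagen (*TIMP2*, adjusted p = 0.0326, edgeR, was added). For RUNXi over collagen 1 and 4 were called, and for DDR1i over RUNXi 2 of the wider list. For DDR1i over control 4 and 3 were called (*MMP14*, adjusted p = 0.0458, and *TIMP2*, 0.0308, edgeR, were added). For RUNXi over control 2 and 4 were called (*PLAU*, adjusted p = 0.00909, and *TIMP2*, 0.0258, edgeR).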
